A study of Mus musculus with 2 samples.

Results

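The cytosolic ribosomal protein genes of mouse gastrocnemius, the large calf muscle, were read out in 2 RNA-seq libraries that differ in the clock gene Cry2. Members were the protein-coding genes of the GENCODE M21 annotation whose symbol is Rpl or Rps with a number (and an optional letter), Rpsa, Rplp0, Rplp1 or Rplp2. The kinase genes named Rps6k were left out. This took 83 genes of the 34745 in the table: 43 of the large subunit, 31 of the small subunit, 3 of the stalk and 6 paralogs (gene relatives that encode another version of a ribosomal protein). 1 library came from C57BL/6 muscle of genotype Cry2flox/flox (Cry2flox) and 1 from C57BL/6 muscle labelled Cry2scko, both at 8 weeks of age. In a floxed allele, sites for a recombinase flank a stretch that can then be cut out. What scko stands for, which Cre driver was used and whether animals were pooled is not given in the labels, and no treatment is named for either group.

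A cytosolic ribosome is built from ribosomal RNA and a fixed set of proteins, most of which are present in equal amounts per particle, and surplus protein is degraded. The small subunit decodes the message, the large subunit holds the peptidyl transferase centre, and the P-stalk recruits the translational GTPases. Mammalian ribosomal protein genes are known for short messages that begin with a run of pyrimidines (the terminal oligopyrimidine, or TOP, element), which couples their translation to mTOR signalling, and for the very large number of retrotransposed copies they have left in the genome. Skeletal muscle is known for Rpl3l, a paralog of Rpl3 found in striated muscle.

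Depth was 18909433 counted reads for Cry2flox and 16423884 for Cry2scko. Cry2, the gene that the groups are defined by, had 676 reads in Cry2flox and 133 in Cry2scko. Neither genotype was replicated. Each value therefore describes these libraries, and no p-value is given. Intervals in brackets are 95% exact counting intervals. They cover counting error only: without molecular identifiers, reads copied by PCR do not each stand for a separate molecule. In bulk tissue, fewer cells of a type and less RNA per cell cannot be told apart. The 6 muscle fibre markers (Acta1, Ckm, Myh4, Myh1, Mb and Tnnt3) had a summed level of 114576 CPM (counts scaled to a common library size) and 108594 CPM, Cry2flox first as in every pair of values here, and none was 2-fold apart. The 8 lymphocyte markers, among them Cd79a, Cd79b, Ms4a1, Cd3e, Cd8a, Ptprc and Ltb, were all more than 2-fold higher in Cry2scko and none was at 0. Their sum was 61.8 and 153.5 CPM. Of 4 fibroblast markers 1, Col1a1, was called lower in Cry2scko, and their sum was 1179 CPM and 794 CPM. None of the 4 macrophage and 4 endothelial markers was called.

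Many of these genes share sequence with copies. A read that lies wholly in a shared stretch cannot be assigned to either gene by its letters alone. How far this bears on the read counts was not tested. The following 60-base stretches of coding sequence, 5′ to 3′ and numbered from the first base of the start codon, are shown for 4 members that had fewer reads than their copy. They come from the GENCODE M21 transcripts (build GRCm38), and capitals mark the bases that differ.
Rpl23a, coding bases 86 to 145: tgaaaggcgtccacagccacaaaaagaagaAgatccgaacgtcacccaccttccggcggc
Rpl23a-ps3: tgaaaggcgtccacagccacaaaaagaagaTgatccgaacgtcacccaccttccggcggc
Rpl9, coding bases 236 to 295: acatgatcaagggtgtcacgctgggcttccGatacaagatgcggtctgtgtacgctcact
Rpl9-ps6: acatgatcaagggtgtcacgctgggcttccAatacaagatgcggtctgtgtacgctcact
Rps27, coding bases 1 to 60: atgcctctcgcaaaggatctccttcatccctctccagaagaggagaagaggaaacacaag
Rps27rt: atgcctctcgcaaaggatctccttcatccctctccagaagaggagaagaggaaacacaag
Rpl12, coding bases 1 to 60: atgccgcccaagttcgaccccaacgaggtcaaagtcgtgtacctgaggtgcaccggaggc
Gm10275: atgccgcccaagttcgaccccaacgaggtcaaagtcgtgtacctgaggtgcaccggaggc

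The substitution A116T was the only one between the coding sequence of Rpl23a (chr11:78180932-78183584) and the processed pseudogene Rpl23a-ps3 (chr14:34170655-34171122), and G266A was the only one between Rpl9 (chr5:65388364-65391444) and Rpl9-ps6 (chr19:32465865-32466578). In each token the base of the member comes first and the base of the copy last. Rps27 (chr3:90212522-90213651) and Rps27rt (chr9:114982366-114982739) were identical over the whole coding sequence. So were Rpl12 (chr2:32961559-32965345) and Gm10275 (chr10:29698746-29699380). Rps27rt and Rpl9-ps6 are annotated as protein-coding, the other 2 copies as pseudogenes.

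Reads were found for 82 of the 83 genes in at least 1 library, and 62 had 100 or more reads in both. The members together took 0.530% of all reads in Cry2flox (0.526 to 0.533%, exact binomial) and 0.589% in Cry2scko (0.585 to 0.592%). Per length, in FPKM (fragments scaled by gene length and depth, as the authors deposited them), the median member with reads stood at 14.1. Only 9 members ranked among the 500 most abundant genes of this muscle by reads.

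**Figure D1:**
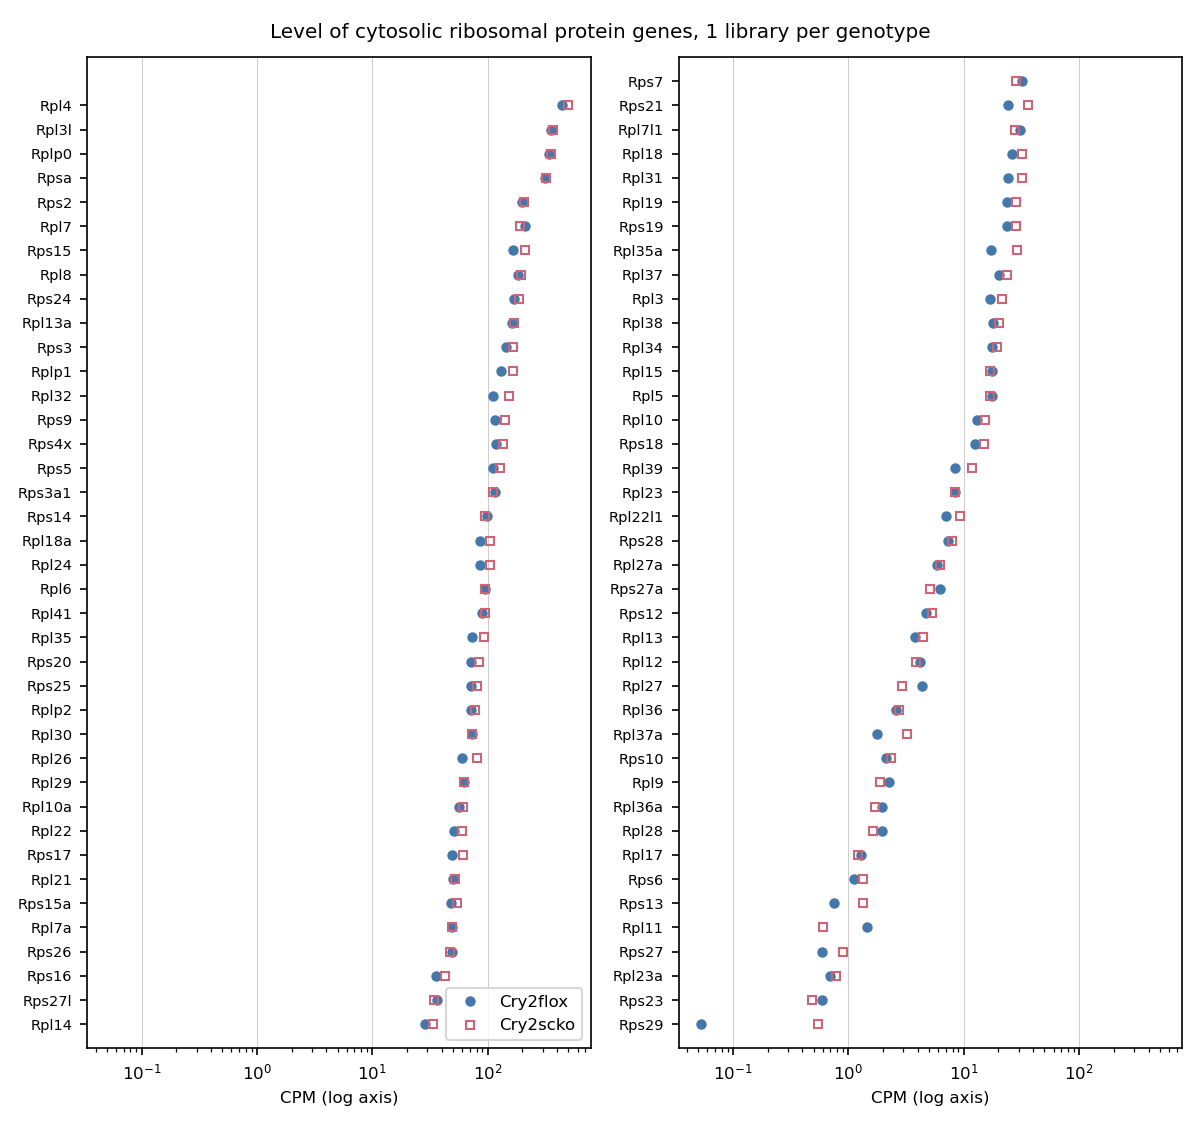
Level of each ribosomal protein gene in CPM (counts scaled for library size, log axis), with the Cry2flox library as filled circles and the Cry2scko library as open squares, sorted by the mean. Rpl4 stands at the top and Rps29 at the bottom; Rpl10l (0 reads in both libraries), Rpl39l (0 and 1 read) and 2 other members are not drawn.

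Rpl4, a large-subunit protein lining the exit tunnel, was the most abundant member by the deposited FPKM, with 309 FPKM in Cry2flox and 350 FPKM in Cry2scko (8321 and 8163 reads). Rplp1, an acidic stalk protein, followed with 261 and 336 FPKM, and Rps15, a small-subunit protein, with 197 and 254 FPKM. Rpl8 had 209 and 225 FPKM, and Rpl3l 209 and 216 FPKM. Per kilobase of 1 annotated transcript the order differed, with Rps15 first at 377 CPM per kilobase (mean of both libraries), then Rpl4 at 305 and Rplp1 at 296. The order of Rpl8 and Rpl3l by FPKM is not firm, since their levels lay within the difference between the libraries.

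The striated-muscle paralog Rpl3l far exceeded its parent. Rpl3l had 6700 and 6035 reads, against 317 and 355 for Rpl3. Rpl3l took 95.5% of the reads of the pair in Cry2flox (94.97 to 95.96%) and 94.4% in Cry2scko (93.85 to 94.99%). Per length, Rpl3 stood at 3.47 and 4.47 FPKM. All of the 100-base stretches of Rpl3l, but 20.6% of those of Rpl3, occurred in no other annotated gene, and Rpl3 has 21 annotated copies, none with a row in the count table. Rps27l, the relative of Rps27, likewise took 98.4% and 97.4% of the reads of its pair, and Rps27 has an identical copy, described further on. Among the other paralogs, Rpl22l1 held 12.1% and 13.4% of the reads of its pair with Rpl22, and Rpl7l1 held 12.9% and 12.8% of its pair with Rpl7. The paralogs known from testis were at the floor: Rpl10l had no read in either library and Rpl39l had 0 and 1. With 3 reads as the limit that a count of 0 allows, a level of up to 0.160 CPM (Cry2flox) or 0.181 CPM (Cry2scko) would go unseen.

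Of the 83 members, 77 had a mean of 1 CPM or more and were compared between genotypes. A gene was called where the ratio of Cry2scko over Cry2flox was at least 2-fold and its counting interval excluded a ratio of 1. No member was called higher, where 3.37% of all 12832 genes compared were, and 1 member (Rpl11) was called lower, where 1.51% were. The other 76 lay less than 2-fold apart or had an interval holding 1, and 72 of the 77 were within 1.5-fold. Calls were rarer among abundant genes. At a mean of 50 CPM or more, 24 of 2067 protein-coding genes were called higher and 9 lower, and none of the 35 members was called. Among the 63 members with 200 or more reads over both libraries, none differed by more than 1.67-fold.

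Within that narrow range most members stood slightly higher in Cry2scko. The ratio was over 1 in 57 of the 77 (74.0%), against 49.5% of all genes compared. Their log2 ratios had a median of 0.15 and quartiles of −0.00 and 0.26, against a median of −0.00 over all genes. The counting interval lay wholly above 1 for 32 members (41.6%), beside 16.3% of all genes, and wholly below 1 for 4 (Rpl11, Rpl27, Rps7 and Rpl7), beside 17.3%. Summed over members, the level was 5334 and 5845 CPM, which gives a log2 ratio of 0.13 (0.12 to 0.14). The lymphocyte markers given above were higher in the same library, and their part in this result was not tested.

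**Figure D2:**
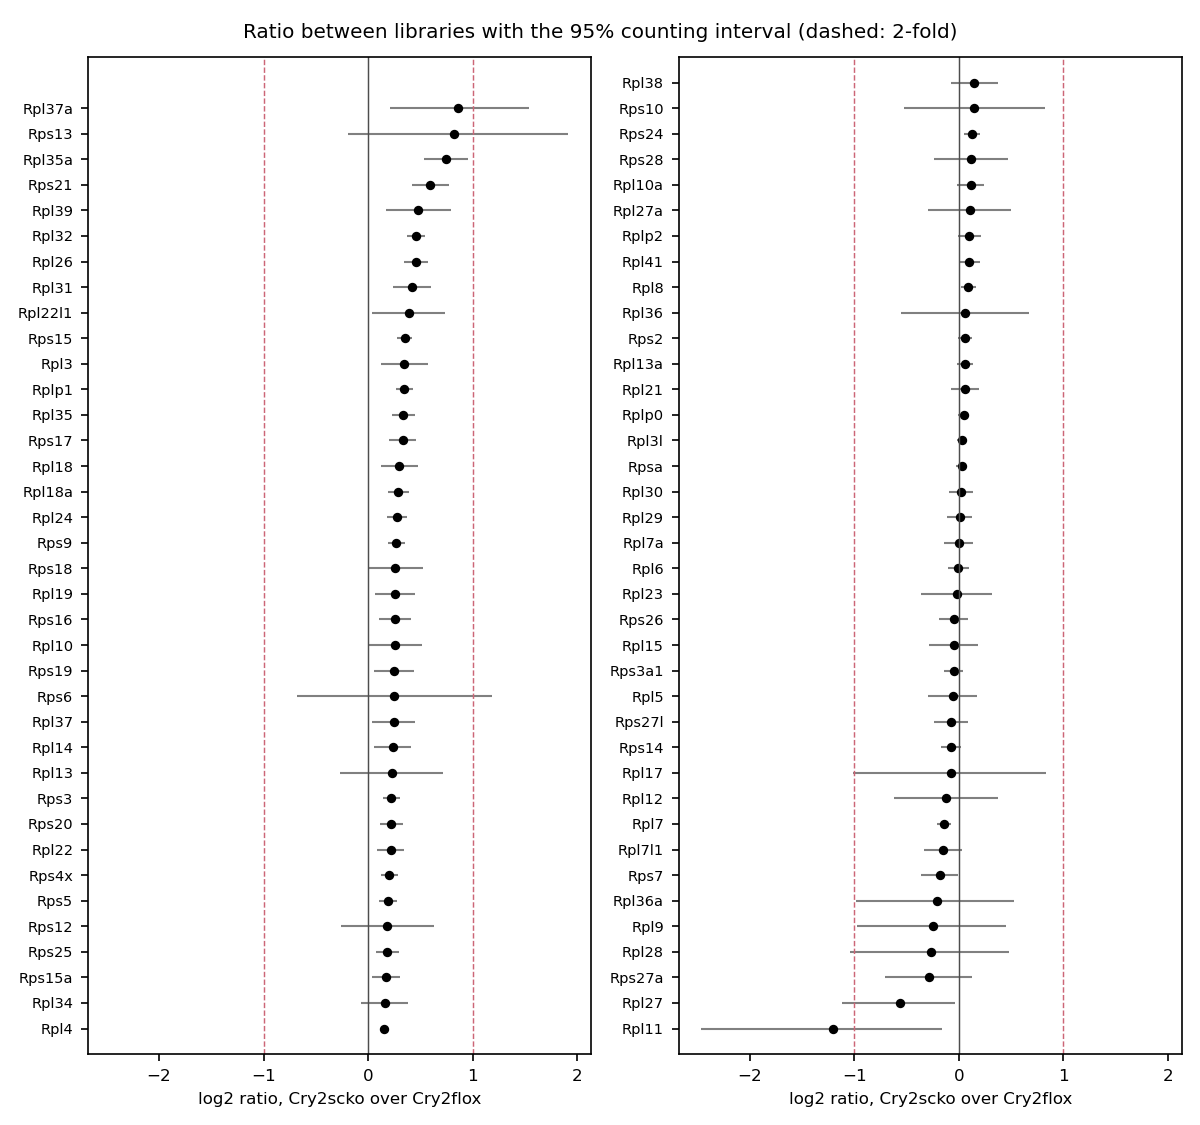
log2 ratio of Cry2scko over Cry2flox for the ribosomal protein genes compared, except 2 that are not drawn (points, sorted) with the 95% counting interval (lines); the solid line marks equal levels and the dashed lines 2-fold. Most points lie between 0 and 0.5, and only Rpl11, at −1.21, lies beyond 2-fold.

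Because an interval narrows as reads accumulate, the members were also set beside genes of like abundance. Of the 35 members with a mean of 50 CPM or more, 19 had an interval above 1 (54.3%), beside 18.6% of the 2067 protein-coding genes at that level. Only Rpl7 had an interval below 1, beside 35.0% of those genes. The ratio was over 1 in 30 of the 35. The median log2 ratio was 0.13 for these members and −0.04 for the 2067 genes.

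**Figure D3:**
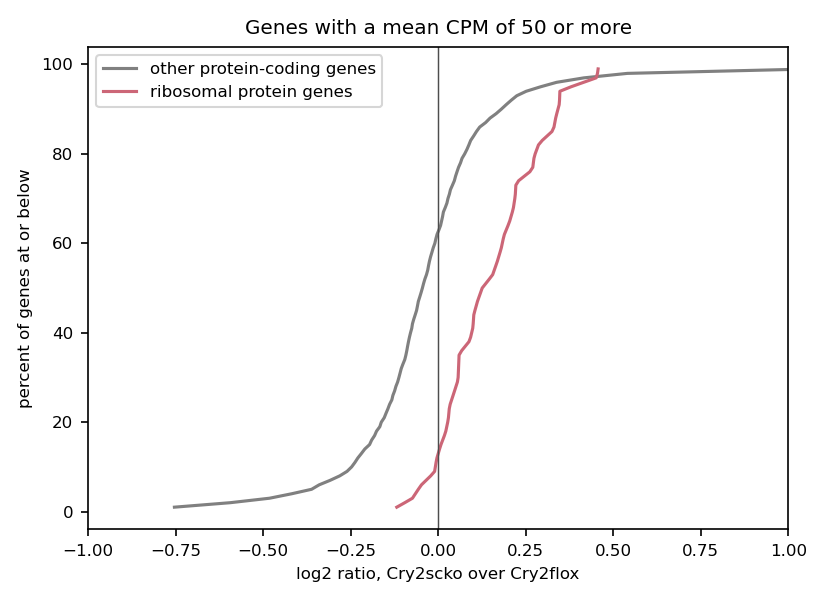
Cumulative distribution of the log2 ratio of Cry2scko over Cry2flox (x axis, 1st to 99th percentile, cropped to between −1 and 1) for the 35 ribosomal protein genes and the 2032 other protein-coding genes with a mean of 50 CPM or more; the y axis is the percent of genes at or below each ratio. The curve of the ribosomal protein genes lies to the right over most of its length, with medians of 0.13 and −0.05.

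By role, 17 of 42 large-subunit members had an interval above 1 and 3 below, with a median log2 ratio of 0.11. Of 28 small-subunit members, 13 were above and 1 (Rps7) below, with a median of 0.19. The difference between the subunits was not tested. All 3 stalk genes had a ratio over 1. Rplp0, the anchor of the stalk, had 6380 and 5796 reads and a log2 ratio of 0.04 (−0.01 to 0.10). Rplp2 had 1351 and 1277 reads and 0.10 (−0.01 to 0.21). Rplp1, with 2440 and 2732 reads, was higher in Cry2scko at 0.35 (0.27 to 0.43).

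The largest ratios among members with 5 CPM or more belonged to genes of both subunits. Rpl35a, of the large subunit, had 324 and 478 reads and a log2 ratio of 0.74 (0.54 to 0.95). Rps21, of the small subunit, had 450 and 598 reads and 0.59 (0.41 to 0.77). Rpl39, which lies in the exit tunnel, had 158 and 194 reads and 0.48 (0.17 to 0.79). Rpl32 had 2101 and 2543 reads and 0.46 (0.37 to 0.54), and Rpl26 had 1116 and 1346 reads and 0.45 (0.34 to 0.57). For all 5 the whole counting interval was above a ratio of 1 and below 2-fold. Rpl37a, below 5 CPM, had 33 and 53 reads and a wide interval, 0.86 (0.21 to 1.54).

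At the low end, among members with 5 CPM or more, the ratios lay closer to 1. Rps27a, a ubiquitin fusion gene, had 118 and 85 reads and a log2 ratio of −0.29 (−0.71 to 0.12). Rps7 had 601 and 467 reads and −0.18 (−0.36 to −0.004). Rpl7l1 had 581 and 461 reads and −0.15 (−0.33 to 0.03), and its parent Rpl7 had 3916 and 3128 reads and −0.14 (−0.21 to −0.07). Rps14 had 1856 and 1553 reads and −0.07 (−0.17 to 0.02). Of these 5, the interval left out a ratio of 1 for Rps7 and Rpl7. Below 5 CPM, Rpl27 had 81 and 48 reads and −0.57 (−1.12 to −0.04), and Rpl11 is described with its copies.

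The 3 pairs of parent and paralog that were compared (with Rpl3, Rpl22 and Rpl7 as parents) had ratios on the same side of 1. However, the intervals of Rpl3l and Rpl7l1 held 1. Rpl3 had a log2 ratio of 0.35 (0.12 to 0.57) and Rpl3l 0.03 (−0.02 to 0.08), with intervals that did not overlap. Rpl22 had 961 and 982 reads and 0.21 (0.08 to 0.34), and Rpl22l1 had 132 and 152 reads and 0.39 (0.04 to 0.73). Rps27l had 677 and 567 reads and −0.07 (−0.24 to 0.09). Rps4x, the X-linked small-subunit gene, had 2198 and 2229 reads and 0.20 (0.12 to 0.29), and Rpl10 had 243 and 255 reads and 0.25 (−0.01 to 0.51).

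A group of members had far fewer reads than the rest. A mean FPKM below 1.41, the median divided by 10, was found for 16 members: Rpl9, Rpl10l, Rpl11, Rpl12, Rpl13, Rpl23a, Rpl27a, Rpl28, Rpl36a, Rpl39l, Rps6, Rps10, Rps13, Rps23, Rps27 and Rps29. Except for Rpl10l and Rpl39l these encode core proteins of the ribosome, and the most reads any of the 16 had in a library was 110. Rps6, the S6 kinase substrate, had 21 and 22 reads. Rps13 had 14 and 22, Rps23, a protein of the decoding centre, 11 and 8, and Rps29, a zinc-finger protein, 1 and 9. Rpl36a had 37 and 28 reads, Rpl28 37 and 27, Rps10 40 and 39, Rpl13 71 and 73, and Rpl27a 110 and 104. Rpl27a was just inside the threshold at 1.32 and 1.44 FPKM. Rpl17 was just outside at 1.64 and 1.57 FPKM, although it had only 24 and 20 reads, followed by Rpl27 and Rpl22l1. By CPM, 16 members fell under the median divided by 10, and by reads per kilobase of 1 annotated transcript 13 did. 12 members were low by all 3 measures. Of the 16, Rpl12, Rpl13 and Rpl27a were low by FPKM alone, and Rpl36a by FPKM and CPM but not per kilobase.

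The low members were compared between genotypes with wide intervals. Of the 16, 10 reached 1 CPM, the ratio was over 1 in 5 of them, the median log2 ratio was −0.01, none had an interval above 1 and 1 had an interval below. For the other 67 members the median was 0.16, with 32 intervals above and 3 below. The 6 members not compared were Rpl10l, Rpl39l, Rps29, Rps27, Rpl23a and Rps23. For Rps29, with 1 and 9 reads, the log2 interval ran from 0.50 to 8.81.

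Several of the low members had a near-identical copy with far more reads than the gene itself. A copy was taken as an annotated gene with at least 90% identity over at least 50% of the coding sequence, and as stand-alone where that match made up at least 50% of the exon bases of the copy. Stand-alone copies numbered 1068 and were annotated for 79 of the 83 members, with a median of 9 and up to 87 (Rpl7a) per member. Only 64 of them, for 37 members, have a row in the count table, and the reads of the other 1004 were not analysed here. The 64 held 20524 reads in Cry2flox and 19145 in Cry2scko, beside 100161 and 96666 for the members themselves. Of the 64, 19 had 100 or more reads.

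In 10 members the stand-alone copies had more reads than the gene in both libraries. Rpl23a had 13 reads in each library, where Rpl23a-ps3 had 1586 and 1527. Rps27 had 11 and 15, where Rps27rt had 592 and 785. Rpl12 had 79 and 64, where Gm10275 had 2374 and 2155. Rpl9 had 42 and 31, where Rpl9-ps6 had 822 and 617. Rpl11 had 27 and 10, where its pseudogene Gm10036, with 99.25% identity, had 500 and 558. These 5 were among the low members. Of the members above the threshold, Rpl5 had 331 and 280 reads, where Gm15500, of identical coding sequence, had 3890 and 3719. Rpl27, Rps7 and Rpl39 were also among the 10. The gene held a median of 6.47% of the summed reads of gene and stand-alone copies in Cry2flox over these 10, from 0.813% for Rpl23a (0.434 to 1.39%) to 36.4% for Rpl39 (31.9 to 41.1%). Copies embedded in longer genes were left out of this count, and some of those genes also exceeded the member in both libraries. Rpl37rt had 1096 and 1306 reads beside 378 and 394 for Rpl37. BC004004 had 1159 and 966 beside 941 and 862 for Rpl21, and Ndfip2 had 164 and 146 beside 24 and 20 for Rpl17.

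**Figure D4:**
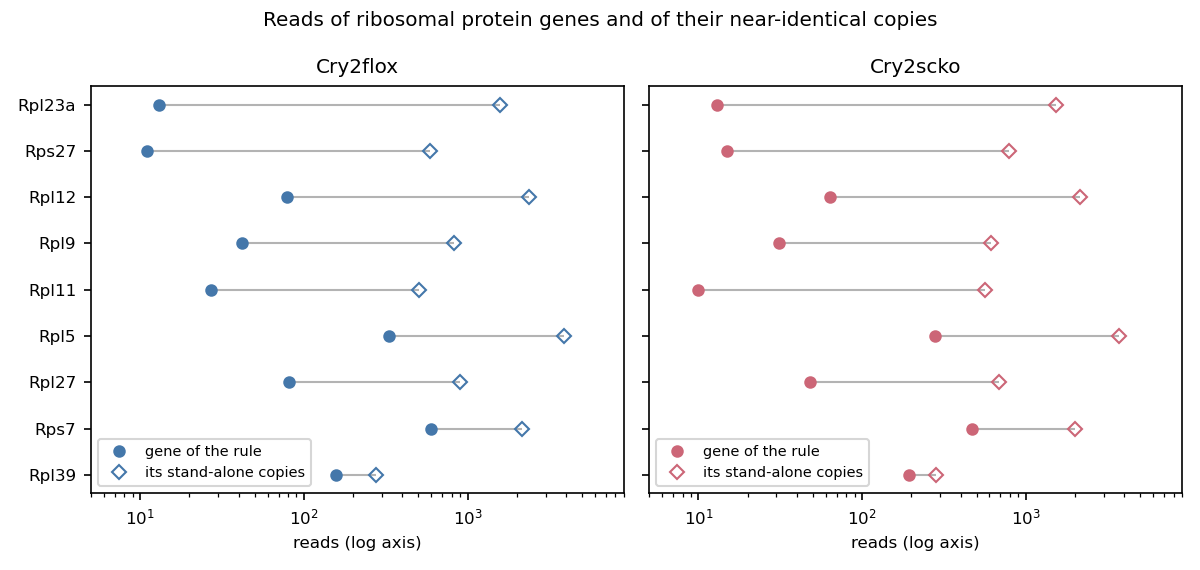
Reads (log axis) of 9 of the 10 ribosomal protein genes with fewer reads than their stand-alone annotated copies in both libraries; circles are the gene and diamonds the sum over its copies, with Cry2flox on the left and Cry2scko on the right. The gap is widest for Rpl23a (13 reads beside 1586 and 1527) and narrowest for Rpl39.

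Adding the reads of the copies changed the only call among the members. Rpl11, a large-subunit protein that also binds Mdm2, had a log2 ratio of −1.21 (−2.46 to −0.16) from 27 and 10 reads. With 5 reads added to each count it was −0.91, and from FPKM with 0.1 added −0.82, so it missed 2-fold in both. Gm10036 had a ratio of 0.34 (0.16 to 0.52), opposite in direction. With the 2 annotated stand-alone copies in the table, Rpl11 totalled 530 and 571 reads and 0.29 (0.12 to 0.46), so the direction turned.

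Sums for other members of the 10 gave these values. Rps27 with its copies was at 0.59 (0.43 to 0.74), Rpl39 at 0.32 (0.13 to 0.51), Rpl23a at 0.13 (0.03 to 0.23) and Rpl5 at 0.11 (0.04 to 0.17). Rpl12 was at 0.04 (−0.05 to 0.12) and Rps7 at 0.03 (−0.05 to 0.11), each with an interval that held a ratio of 1. Rpl9 stayed below 1 at −0.23 (−0.38 to −0.08) and Rpl27 at −0.23 (−0.37 to −0.09). Over the whole family, 80 members reached 1 CPM as sums. None of the sums was 2-fold apart, 38 had an interval above 1 and 3 below, and the median log2 ratio was 0.16.

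Not all low members had a stand-alone copy in the table. Of the 16, 15 have an annotated stand-alone copy, but so do 64 of the other 67. Only 7 of the 16 have one with a row in the table, beside 30 of the other 67. Rps6, Rps10, Rps13, Rps29, Rpl27a, Rpl28 and Rpl36a are among the 9 with none there. For these, reads at copies outside the table were not analysed here.

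The share of a transcript that occurs in no other annotated gene varied widely. It was taken over all 100-base stretches of 1 transcript per member, searched on both strands of the annotated transcripts, since a genome sequence was not used here. Of equally ranked protein-coding transcripts the longest was taken, with its untranslated ends. A gene that overlaps the member at its own locus counted as another gene, so a shared stretch need not lie in a copy. The median was 66.1%, from 1.63% for Rps27 to 100% for 9 members, and 15 members were under 25%. The median was 46.3% over the 16 low members and 68.9% over the other 67, with ranges of 1.63 to 100% and 8.89 to 100% that overlap. Across the 82 members with reads the Spearman correlation with the mean CPM was 0.43, a description over genes that share libraries and depth. Rpl5 (8.89%), Rpl10a (12.9%), Rpl35 (17.0%) and Rpl24 (19.9%) had a small share and were not low. Of these, Rpl5, Rpl35 and Rpl24 share 953, 883 and 484 exon bases with genes at their own locus. Their shares therefore do not measure sequence repeated in copies alone, while Rpl10a has no such overlap. Rps29 (75.3%), Rpl27a (67.1%) and Rpl28 (60.2%) were low although most stretches of the transcript occurred in no other annotated gene. Coding sequence makes up only 168 of 390, 444 of 1158 and 411 of 1106 bases of these transcripts. The share over the coding sequence alone was not worked out, and the 3 genes have 12, 17 and 4 annotated stand-alone copies.

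**Figure D5:**
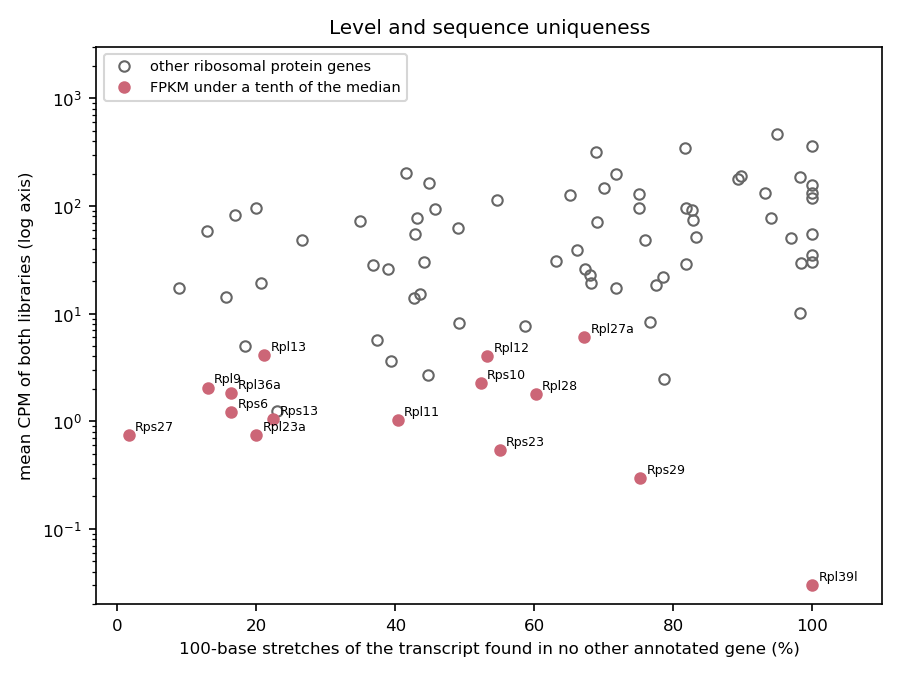
Mean CPM of both libraries (log axis) against the percent of 100-base stretches of the transcript that occur in no other annotated gene, for the 82 ribosomal protein genes with reads; filled points are members with a mean FPKM below 1.41, the median divided by 10. The low members spread from 1.63% (Rps27) to 100% (Rpl39l), and several genes with under 25% have more than 10 CPM.

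The deposited FPKM of a member also depends on the length the authors divided by. That length, worked out from reads and FPKM, was a median of 2.54 times the annotated transcript and exceeded the span of the gene with its introns in 30 of 82 members. It was 0.92 times the transcript for Rpl4, 9.32 times for Rpl35a, 14.2 times for Rps13 and 14.8 times for Rpl9. The median was 3.81 over the low members and 2.35 over the rest. The low members were chosen by FPKM, which is divided by this same length, so part of that difference follows from the choice. Levels between members in FPKM are therefore not on one common length scale, while the ratio between libraries is unaffected, since all genes with reads in both libraries had the same implied length in both within 0.1 percent.

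Exon bases shared with another gene touched 19 members, and the strand setting of the counting is not given in the sources used here. On the same strand, the case that bears most on a ratio was Rpl24, a large-subunit gene with 1611 and 1716 reads and a log2 ratio of 0.27 (0.18 to 0.37). Its locus shares 484 exon bases with Gm28037, an overlapping transcript on the same strand, which had 314 and 32 reads, a ratio of −3.09 (−3.68 to −2.58). Summed, the locus was at 0.04 (−0.05 to 0.14), an interval that holds 1. On the opposite strand, Rpl28 (37 and 27 reads) shares 183 bases with Ube2s, which had 107 and 226 reads. The ratio of Rpl28 alone was −0.26 (−1.04 to 0.48), an interval that holds 1. Summed with Ube2s it was 0.99 (0.70 to 1.302), a larger move than for Rpl24. Most reads of that sum are those of Ube2s, whose own ratio was 1.26 (0.92 to 1.61). Rpl23a shares 506 bases with Tlcd1 (35 and 22 reads). Its ratio was 0.18 (−1.04 to 1.41) alone and −0.27 (−0.94 to 0.39) summed, and both intervals hold 1. Without the 19 members, 24 intervals lay above 1 and 4 below.

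The start of the gene is where ribosomal protein genes carry their shared element, so the sequence around the RefSeq start site is shown for members with and without a pyrimidine run. Each line gives 30 bases before the start and 15 from it, in the direction of the gene (RefSeq, GRCm38.p6). Capitals mark an unbroken run of at least 6 C or T that covers the first transcribed base.
Rpl34, chr3:130730323-130730367, minus strand: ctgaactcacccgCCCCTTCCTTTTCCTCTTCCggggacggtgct
Rpl35, chr2:39005117-39005161, minus strand: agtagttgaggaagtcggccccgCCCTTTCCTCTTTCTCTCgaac
Rps6, chr4:86857353-86857397, minus strand: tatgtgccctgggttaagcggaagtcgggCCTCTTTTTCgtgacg
Rplp2, chr7:141447621-141447665, plus strand: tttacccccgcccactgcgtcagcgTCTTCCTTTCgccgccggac
Rps21, chr2:180257349-180257393, plus strand: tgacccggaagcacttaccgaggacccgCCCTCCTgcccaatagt
Rpl4, chr9:64173357-64173401, plus strand: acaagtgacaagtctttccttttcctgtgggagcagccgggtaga
Rpl3l, chr17:24727796-24727840, plus strand: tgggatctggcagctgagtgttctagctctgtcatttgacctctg

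Of the 83 members, 63 had a RefSeq start sequence. A run of at least 6 covered the start base in 17 (27.0%), beside 7.25% of the 32851 start sequences in the table. The start base was C in 30.2% of members and 16.3% of all. In Rpl4 a run ended shortly before the annotated start, so it is not counted. A match describes these letters only. Of the members with the run, 16 were compared, with a ratio over 1 in 14, intervals above 1 in 6 and below in 0, and a median log2 ratio of 0.16. Of those without it, 43 were compared, with a ratio over 1 in 30, intervals above 1 in 18 and below in 3, and a median of 0.13.

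Other genes of the translation machinery were counted in the same way, with no test of a difference from the members. Of 6 ribosomal protein genes whose names the rule does not take (among them Fau, Rpl36al, Rack1, Rps27rt and Rpl37rt), all had a ratio over 1, 4 had an interval above 1, and the median log2 ratio was 0.19. Rack1, a scaffold on the small subunit, had 3240 and 3076 reads and 0.11 (0.04 to 0.18), and Rpl37rt, a transcribed copy of Rpl37, had 1096 and 1306 reads and 0.44 (0.32 to 0.55). Of 28 elongation and initiation factors and other genes of TOP messages, none was called, 8 intervals were above 1 and 8 below, and the median was 0.05. The elongation factors Eef1a2 (22829 and 19699 reads), Eef2 (21649 and 19853 reads) and Eef1a1 (6879 and 6271 reads) were at −0.03, 0.06 and 0.05. Of 47 genes of ribosome biogenesis none was called, with 6 above and 6 below and a median of 0.05. The nucleolar proteins Ncl and Npm1 were at −0.11 and −0.08, and Mybbp1a was at 0.15. Of 26 genes that signal to translation none was called, 1 was above and 8 below, and the median was −0.09. In that list Eif4g2, Eif4g1 and Larp1, a binder of TOP messages, were at −0.13, −0.01 and −0.10.

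The mitochondrial ribosomal proteins, the most similar family, numbered 78. They had 15 intervals above 1 and 13 below, with a median log2 ratio of 0.02, and the difference from the cytosolic family was not tested. Mrpl53, of the mitochondrial large subunit, was the 1 gene of that family called higher, with 60 and 119 reads and a ratio of 1.17 (0.71 to 1.64).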

How the data were processed

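RNA of mouse gastrocnemius was sequenced in 2 libraries, 1 per genotype. The authors deposited a table of raw counts by Ensembl identifier, per the file headers, and FPKM values in 1 file per library, per the file headers. CASAVA, HISAT2 2.0.4, StringTie 1.3.0 and the build GRCm38 are named in the submitters' processing notes. The counter, the annotation release, the strand setting and the treatment of reads that match several places are not given in the sources used here.

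Library sizes were scaled by TMM in edgeR 4.0.16 (R 4.3.3), with factors of 0.993 for Cry2flox and 1.01 for Cry2scko. The log2 ratio was taken with 0.5 reads added, with a 95% interval from the exact Clopper-Pearson limits of the split of a gene's reads. A gene was compared from a mean CPM of 1 upward and called at 2-fold with an interval that excludes 1. DESeq2 1.42.0 gave alternative size factors. Symbols, transcripts and exons came from GENCODE M21 (34344 of 34745 identifiers had a name). Copies were sought with BLAST 2.17.0 among its transcripts. Start sequences came from RefSeq (GRCm38.p6). Python 3.11.15 was used with pandas 2.3.3, scipy 1.17.1, numpy 2.4.6 and, for figures, matplotlib 3.10.9. The calculation was tested on simulated data.

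The members and lists were chosen with earlier results of these data known. The named members were those with few reads and the 3 nearest the threshold, the 6 most abundant by FPKM, the 5 highest and 5 lowest ratios at a mean CPM of 5 or more, those called, the stalk and the paralog pairs. In each other list the called genes were named, or else the 3 most abundant. Other members and copies named, and the division of copies into stand-alone and embedded, were chosen after their values were seen. A few genes that these rules take are not reported here.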

Additional observations from a re-analysis of the deposited data

How the results depend on the processing

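The median log2 ratio of the members, 0.15, was 0.14 with DESeq2 size factors and 0.17 under total-count scaling. It was 0.18 without mitochondrial and the 20 most abundant genes, 0.17 from FPKM with 0.1 added and 0.16 at a mean CPM of 5 or more. None of the scalings moved the median of all genes by more than 0.1. The 1 member called (Rpl11) gave way to 0 with 5 reads added, 0 from FPKM and 0 at a mean CPM of 5 or more, which does not compare Rpl11. With no filter on low counts 2 were called (Rpl11 lower, Rps29 higher), and at a fold of 1.5 there were 4, 3 of them higher. At a mean CPM of 5 or more 2 intervals lay below 1 in place of 4. Intervals above 1 numbered 24 to 42 over the alternatives, beside 32, and FPKM gives no interval. With a wider limit for few reads (the median divided by 4), 25 members were low in place of 16. The median share of stretches found in no other gene was 49.3% at 50 bases and 73.7% at 150 bases. Of 205 values for 41 named members under the scaling, FPKM and added-read alternatives, 203 kept their direction and side of the threshold and 2, both of Rpl11, missed it. Copies embedded in longer genes and same-strand overlaps, both tried after seeing the data, left the median at 0.16 and 0.15. No paired analysis was possible because there is 1 library per genotype, and for the same reason no library could be left out. Depth limits the members with few reads most, as their intervals show.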
